A study of Mus with 2 samples.

Results

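Peptide hormone production in the mouse ileum was followed through 10 genes: 6 hormone genes (Pyy, Gcg, Sct, Nts, Cck and Ghrl), the granin Scg2, the prohormone convertase Pcsk2 and the lipid receptors Gpr119 and Ffar1. They were taken by symbol from 5 deposited fold change sheets, 1 per epithelial cell type, and from 1 deposited table of cluster markers, 10 of the 8995 genes found in any of these tables. All 10 were listed in the enteroendocrine sheet, 5 in no other sheet, and 7 were markers of the same cluster. Epithelial cells of the distal ileum were sorted by flow cytometry and sequenced as single cells with inDrops, which encapsulates each cell in a droplet and tags its RNA. The nociceptor-ablated sample was Nav1.8Cre+/-DTA+/- and the control was Nav1.8Cre-/-DTA+/-, both labelled Baseline, so both carried 1 allele for diphtheria toxin A and differed in the Cre allele. Nav1.8 Cre is active in most pain-sensing sensory neurons, and the toxin kills the cells in which Cre releases it. Each genotype was 1 sample of 3 pooled male mice, 8 weeks old by the deposited library sheet, which plans 8500 nociceptor-ablated and 10000 control cells.

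Enteroendocrine cells are rare hormone-secreting cells scattered through the gut lining. L cells, which are common in the ileum, release peptide YY and the glucagon-like peptides cut from proglucagon, and related cells release secretin, neurotensin or cholecystokinin. These peptides slow gut transit, curb appetite and promote insulin and bile release. Nutrients are sensed through receptors such as those for long-chain fatty acids and for fatty acid amides. The hormones are made as larger precursors, cut by prohormone convertases, packed with granins into dense-core vesicles and released when calcium rises.

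The sheets do not name the genotype of their columns, so group 1 is the group whose share stands first in a sheet and group 2 the other, and a difference between them gives no direction of nociceptor loss. A fold change is group 1 over group 2 on a log2 scale, with an offset whose size no source used states. A linear fold is thus a ratio of means with the offset added. Whether the counts were scaled for depth per cell was not tested, so a difference in depth may enter any fold change. The offset also draws genes with few counts toward 0, so ranks by fold change depend on expression level too. Detection is the share of cells in which a gene was found. There is 1 sample per genotype and no value per sample or sub-library, so no difference between the groups was tested and none has a replicate error. The number of cells and the depth per cell behind the shares are not stated in any source used, so no interval was computed. The smallest share above 0 in the enteroendocrine sheet was 2.9% in group 1 and 2.5% in group 2, which shows how coarse its shares are. If each stands for 1 cell, both groups held few cells and every share moves in steps of that size. Over the 5287 genes of that sheet, the median log2 fold change was -0.05, and 32.6% were detected more often in group 1. Of 23 general enteroendocrine markers, 20 were listed there, and the authors' deposited table has Chga at 76.5% in group 1 and 82.5% in group 2, and Chgb at 70.6% in group 1 and 90.0% in group 2. The shares of these 20 markers summed to 815.0 points in group 1 and 980.0 points in group 2, and 16 of them had a fold change below 0.

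Among the hormone genes, Pyy and Sct were higher in group 1, Nts was detected more often there, and Ghrl had a lower mean but a higher detection. Gcg and Cck were nearly level in detection, with small fold changes above 0. Pyy encodes the precursor of the L cell hormone peptide YY and lies on chromosome 11 from 102106676 to 102107832 (GRCm38.p6, as are all positions here). The authors' deposited table has it in 52.9% of group 1 cells, against 27.5% of group 2 cells. Its log2 fold change, 1.62 by the authors' deposited table or 3.07-fold on the linear scale with the offset included, was the highest of all genes in the sheet. More cells with the hormone and more RNA per such cell both raise a mean over cells, and the fold change alone cannot tell them apart.

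Sct encodes secretin, which stimulates bicarbonate secretion by the pancreas, and lies on chromosome 7 from 141278329 to 141279174. Its detection was the highest of the 10 genes, at 85.3% of group 1 and 72.5% of group 2 by the authors' deposited table. At 1.19 (2.28-fold) by the authors' deposited table, its log2 fold change was the second highest of the sheet. Pyy and Sct were thus the top pair of genes by fold change, while by detection difference Pyy (25.4 points) had rank 9 and Sct (12.8 points) rank 157.

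Nts, the gene of neurotensin, which slows gut motility and aids fat absorption, showed a large difference in detection and a small one in fold change (chromosome 10, 102481756 to 102490418). It was found in 41.2% of group 1 and 12.5% of group 2 by the authors' deposited table, a difference of 28.7 points that had rank 6 of 5287. Yet its log2 fold change was 0.23 by the authors' deposited table, rank 120. That value was shared to 10 decimals by 51 genes of the sheet, Pcsk2 among them, and 93.3% of all genes shared their fold change with at least 1 other gene. Such repeats covered 97.2% of genes in the tuft sheet, 54.2% in the goblet sheet, 36.1% in the stem cell sheet and 2.92% in the enterocyte sheet. The reason for these repeats was not tested.

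Gcg, the proglucagon gene from which L cells make glucagon-like peptides, was on chromosome 2 from 62474530 to 62483653. The authors' deposited table listed it in 38.2% of group 1 and 37.5% of group 2, and at 0.17 on the log2 scale. Cck encodes cholecystokinin, which contracts the gallbladder and signals satiety, and lies on chromosome 9 from 121489824 to 121495694. By the authors' deposited table, 67.6% of group 1 and 70.0% of group 2 had it, at 0.21 on the log2 scale. Both detection differences (0.7 points for Gcg and -2.4 points for Cck) were smaller in size than the smallest share above 0 in either group. The proglucagon gene therefore did not show the difference seen for Pyy, its companion in L cells, and whether the genes differ in this was not tested.

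Ghrl, the gene of the appetite-promoting hormone ghrelin, was found in 17.6% of group 1 and 12.5% of group 2 by the authors' deposited table (chromosome 6, 113716119 to 113719911). The log2 fold change pointed the other way, at -0.79 by the authors' deposited table, and was the 8th lowest of the sheet. Signs of fold change and detection difference were opposite for 607 genes, 11.5% of the sheet. Ghrl was also 1 of 7 genes for which the deposited p-value was blank, for a reason that no source used here states. Gip, the gene of a hormone that enhances insulin release, was another, at -1.12 with 5.9% of group 1 and 12.5% of group 2 by the authors' deposited table. Reg4 (14.7% of group 1 and 20.0% of group 2) and Agr2 (47.1% of group 1 and 45.0% of group 2), named further below, were also among these 7.

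**Figure D1:**
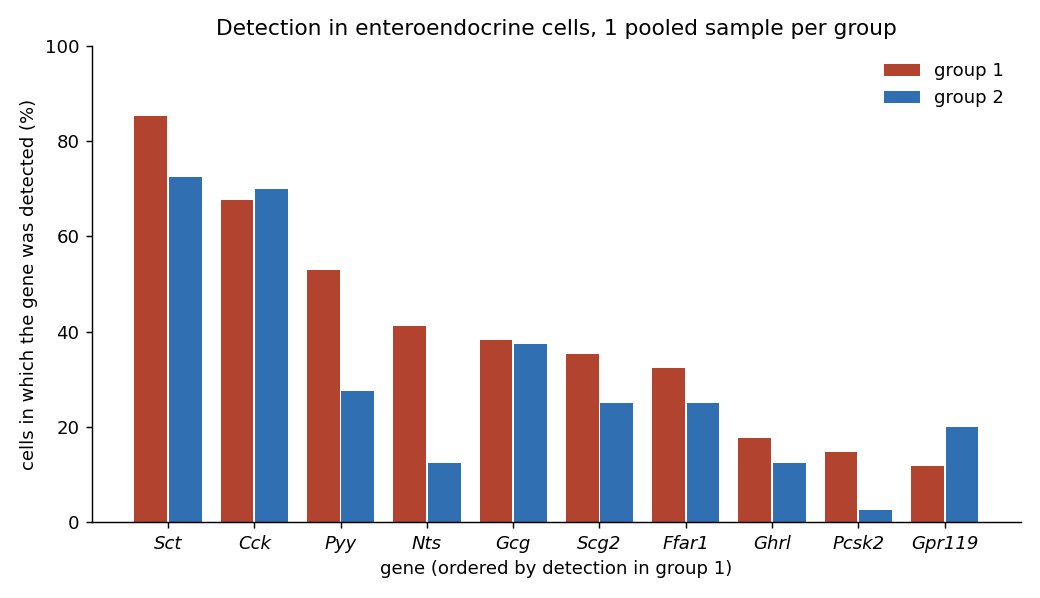
Share of enteroendocrine cells in which each of the 10 genes was detected (percent, vertical axis), in group 1 (left bar) and group 2 (right bar); 1 pooled sample per group, so there are no error bars. Pyy (52.9% and 27.5%) and Nts (41.2% and 12.5%) have the largest gaps, Gcg (38.2% and 37.5%) and Cck (67.6% and 70.0%) the smallest.

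Scg2, Pcsk2 and Ffar1 leaned to group 1 by both measures, and Gpr119 leaned to group 2. Scg2 encodes secretogranin II, a granin of dense-core vesicles (chromosome 1, 79434366 to 79440026). Its shares were 35.3% in group 1 and 25% in group 2, at 0.26 on the log2 scale, by the authors' deposited table. Pcsk2, the convertase that cuts proglucagon to glucagon in pancreatic alpha cells, spans 270152 bases of chromosome 2 from 143546133 to 143816284. Its shares were 14.7% of group 1 and 2.5% of group 2 by the authors' deposited table, and 2.5% was the smallest share above 0 in that group. The log2 fold change was 0.23 by the authors' deposited table, the value it shared with Nts. It was the only one of the 10 that reached the listing limit of 10.0% in 1 group alone, so a difference was a condition of its listing.

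Ffar1 encodes a receptor for long-chain fatty acids that triggers incretin release (chromosome 7, 30860568 to 30861470). The receptor was found in 32.4% of group 1 and 25% of group 2, at 0.11 on the log2 scale, by the authors' deposited table. Gpr119 encodes a receptor for oleoylethanolamide and other lipid amides on L cells (chromosome X, 48667979 to 48674478). The authors' deposited table listed it in 11.8% of group 1 and 20.0% of group 2, and at -0.09 on the log2 scale. The 2 lipid receptors therefore lay on opposite sides, by 7.4 points for Ffar1 and -8.2 points for Gpr119.

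Across the 10 genes, 8 had a log2 fold change above 0 and 8, not the same ones, were detected more often in group 1. Their median log2 fold change was 0.22 against -0.05 for all genes of the sheet, and their median detection difference was 8.9 points against -4.0 points. A log2 fold change of 0.5 or more was reached by 2 members (Pyy and Sct), where 0.132% of all genes reached it. The offset holds genes with few counts near 0, so that share depends on expression level as well as on the difference. A value of -0.5 or less was found for 1 member (Ghrl), where 0.624% of all genes had one. Detection was over 10 points higher in group 1 for 5 members (Nts, Pyy, Sct, Pcsk2 and Scg2), against 6.56% of all genes. Pcsk2 is in this count and in both counts of 8, although it was listed through group 1 alone. None of the 10 was over 10 points lower, as were 20.5% of all genes. The set was put together with earlier results of these data known, Pyy and Sct included, so these counts describe it and are no evidence of their own.

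**Figure D2:**
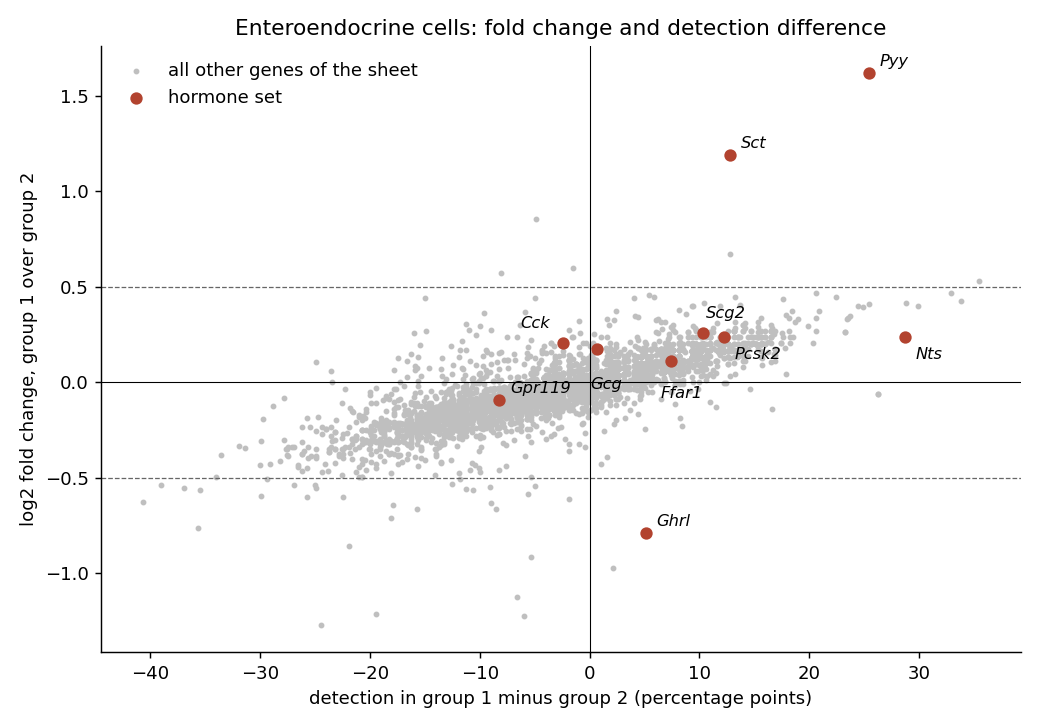
Log2 fold change (group 1 over group 2, vertical axis) against detection difference (group 1 minus group 2 in percentage points, horizontal axis) for each gene of the enteroendocrine sheet; red points are the 10 genes and dashed lines mark 0.5 and -0.5. Pyy and Sct lie above all other genes, Nts lies far to the right near 0.23, and Ghrl lies low at -0.79 on the side of higher detection.

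Genes that resemble Pyy and Sct in these values were sought by a distance. It was measured over both detection shares, in units of 10 points, and the log2 fold change. The 5 genes closest to Pyy were Gm5781, Cyc1, Il1rapl1, Rec114 and Ndufs6, at distances from 1.21 to 1.41. Gm5781 had the same shares as Pyy and stood at 0.41 on the log2 scale by the authors' deposited table. The 5 closest to Sct were Rpl37a, Rps4x, Rpl32, Calr and Rpl23, at distances from 1.10 to 1.17, with log2 fold changes between 0.13 and 0.44 in the authors' deposited table. None of these 10 neighbours is a hormone gene, and none had a log2 fold change of 0.5 or more. Only 7 genes of the sheet reached 0.5, Pyy and Sct among them, and 8 hormone genes of the list used were in it. The absence of both kinds was thus nearly fixed in advance and is no evidence that the pair stands apart.

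The marker table, which compares each of 8 clusters with all other cells and does not use genotype, placed the hormone genes at the top of cluster 6. Its 5 leading markers by fold change were Gcg, Pyy, Sct, Chgb and Cck. Gcg came first at 5.24 on the log2 scale by the authors' deposited table, found in 40.6% of cluster 6 and 3.3% of other cells. Pyy followed at 5.13, with 40.6% inside and 4.2% outside, in the authors' deposited table. Sct was at 4.97, with 81.2% inside and 16.1% outside, and Cck at 4.09, with 71.0% inside and 1.8% outside, in the authors' deposited table. Nts was at 3.52 in the authors' deposited table, with 26.1% inside and 1.9% outside. The hormone genes were thus among the strongest markers of the cluster, although Gcg, Pyy and Nts were found in fewer of its cells than Sct or Cck.

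Scg2 and Ffar1 were weaker by fold change but were found in almost no cells outside the cluster. The authors' deposited table gave Scg2 31.9% of cluster 6 and 0.1% of other cells, and Ffar1 29.0% of cluster 6 and 0.1% of other cells. Their log2 fold changes were 0.70 and 0.63 in the authors' deposited table, ranks 56 and 71 of 311 markers. Over all 311 markers the median share outside the cluster was 11.5%, and 29 were found in at most 1% of outside cells. Ghrl, Pcsk2 and Gpr119 were not listed as markers of any cluster. Cluster 6 did not hold exactly the cells of the enteroendocrine sheet: for 45 of its 311 markers, Cck and Gcg among them, the cluster share lay beyond the shares of both groups by more than 0.1 points.

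**Figure D3:**
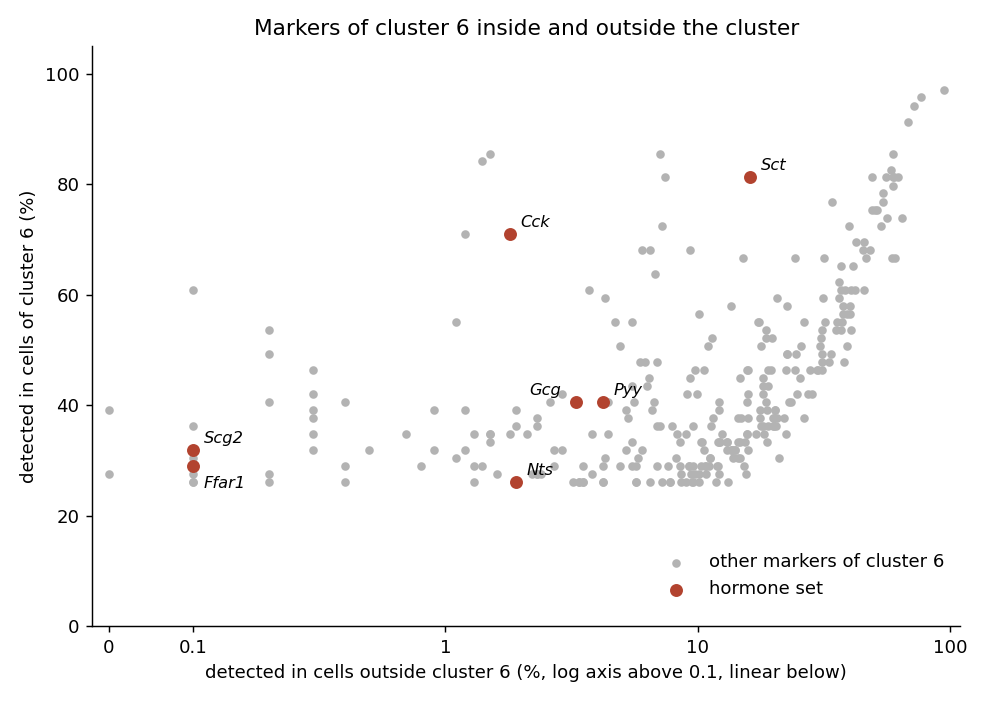
Each point is a marker of cluster 6: share of cluster 6 cells (percent, vertical axis) against share of all other cells (percent, horizontal axis, logarithmic above 0.1) in which it was detected; red points are the 7 hormone set genes among them. Scg2 and Ffar1 lie at 0.1% outside the cluster, while Sct lies at 16.1%.

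Outside enteroendocrine cells, Sct and Pcsk2 were listed in all 4 other sheets, Pyy, Gcg and Cck in the tuft sheet alone, and Nts, Ghrl, Scg2, Gpr119 and Ffar1 in none. Thus 5 of the 10 genes (50.0%) were listed for enteroendocrine cells only, as were 13.1% of all genes of that sheet. A gene not listed may still be detected, since each sheet held only genes at 10.0% or more in at least 1 group. Nts, for example, was found in 1.9% of cells outside cluster 6 in the authors' deposited table. Sct was frequent in goblet cells, the mucus-secreting cells, with 55.9% of group 1 and 58.2% of group 2 by the authors' deposited table. Its fold there was 0.999 by the authors' deposited table, level between the groups. It was also a marker of cluster 4, led by the goblet genes Tff3, Zg16, Spink4, Fcgbp and Agr2, with 50.2% inside and 13.9% outside in the authors' deposited table. The log2 fold change over other cells was 0.29 in the authors' deposited table, against 4.97 for cluster 6.

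In enterocytes, the absorptive cells, Sct was found in 18.4% of group 1 and 16.6% of group 2 by the authors' deposited table. Stem cells had it in 10.2% of group 1 and 8.6% of group 2 by the authors' deposited table. Tuft cells had it in 33.3% of group 1 and 57.1% of group 2, at -0.42 on the log2 scale, by the authors' deposited table, where the median of all genes in that sheet was -0.11. The goblet and tuft shares thus stood above those of enterocytes and stem cells in both groups. The tuft shares are coarse, since the smallest above 0 in that sheet were 5.6% in group 1 and 14.3% in group 2. If each stands for 1 cell, the tuft groups held very few cells. RNA set free from broken cells can be counted in cells that do not make it, and its part in the Sct shares was not tested.

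Pyy and Cck were each listed at 0 in group 1 and 14.3% in group 2 of the tuft sheet, and Gcg at 5.6% in group 1 and 14.3% in group 2, in the authors' deposited table. These are 0 or the smallest share above 0 in that sheet, so each entry stands at the limit of what it can show. Pcsk2 had its lowest group 2 share in enteroendocrine cells. Enterocytes had it in 18.4% of group 1 and 21.7% of group 2, and stem cells in 20.4% of group 1 and 30.8% of group 2, by the authors' deposited table. Goblet cells had it in 14.4% of group 1 and 21.8% of group 2, and tuft cells in 22.2% of group 1 and 28.6% of group 2, by the authors' deposited table. A lowest group 2 share in enteroendocrine cells was found for 29.4% of the 2476 genes listed in all 5 sheets. Pcsk2 was detected more often in group 1 in enteroendocrine cells and less often in the 4 other types. No sheet states that its groups are in the same order as those of another.

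None of the values of the set in these 4 sheets was past 0.5 in either direction. Of all genes, 8.01% were past it in the tuft sheet, 0.321% in the enterocyte sheet, 0.242% in the goblet sheet and 0.167% in the stem cell sheet.

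**Figure D4:**
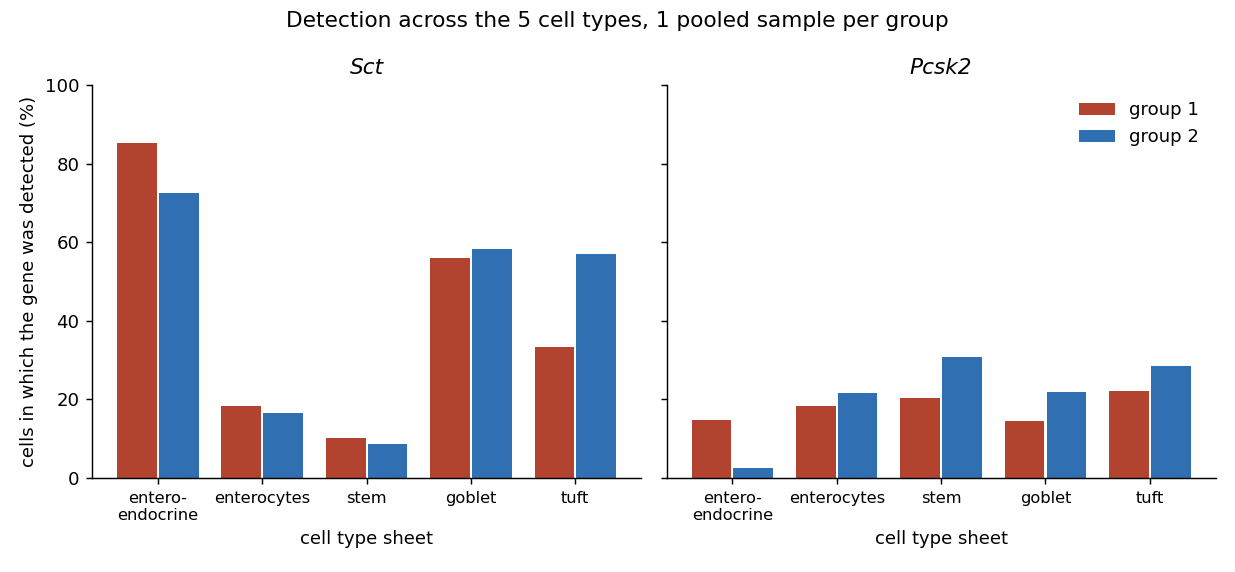
Share of cells (percent, vertical axis) in which Sct (left panel) and Pcsk2 (right panel) were detected in each of the 5 cell type sheets, group 1 as left bars and group 2 as right bars, 1 pooled sample per group. Sct is highest in enteroendocrine and goblet cells, and Pcsk2 is lowest in group 2 of enteroendocrine cells at 2.5%.

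The wider machinery of hormone production did not lean to group 1 as Pyy and Sct did, and of all genes of the sheet 35.3% had a fold change above 0. Of 22 peptide hormone genes, 8 were listed in enteroendocrine cells, 5 above 0 and 3 below, with a median log2 fold change of 0.19. The 3 below were Ghrl, Gip and Tac1, the tachykinin precursor found in serotonin-producing cells, at -0.71 in the authors' deposited table. Serotonin and enterochromaffin genes lay low, with 10 of 11 listed below 0 and a median of -0.71. Tph1, the first enzyme of serotonin synthesis, was at -1.27, with 20.6% of group 1 and 45.0% of group 2, by the authors' deposited table. Slc18a1, which loads serotonin into vesicles, was at -0.55, and Reg4, a lectin of these cells, at -0.92, in the authors' deposited table.

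Granins and vesicle proteins were above 0 in 4 of 25 cases, against 35.3% of all genes, with a median of -0.13, and Scg2 was the highest of them. Stx1a, a membrane fusion gene counted below 0, was listed at 0 in group 1. Chga and Chgb, the chromogranins, stood at -1.22 and -1.21 in the authors' deposited table. The vesicle GTPase gene Rab3c was at -0.86 and the granule membrane gene Ptprn2 at -0.58 in the authors' deposited table. Chga, Chgb and Rab3c are also counted in the serotonin and enterochromaffin list, as is Tac1 of the hormone list, so these lists are not separate. Prohormone processing genes were above 0 in 1 of 9 cases, with a median of -0.16, and the exception was Pcsk2, which was listed through group 1 alone. Cpe, Scg5 and Pcsk1n belong to both the granin and the processing list. Pcsk1, the convertase that releases glucagon-like peptides from proglucagon, was at -0.35, with 41.2% of group 1 and 62.5% of group 2, by the authors' deposited table. The carboxypeptidase gene Cpe was at -0.32 in the authors' deposited table, and Pam, which amidates peptides such as peptide YY, at -0.11.

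Of 23 receptor and nutrient transport genes, 5 were listed, with Ffar1 above 0, the other 4 below and a median of -0.09. Ffar2, a receptor for short-chain fatty acids, was the lowest at -0.44, with 29.4% of group 1 and 45.0% of group 2, by the authors' deposited table. Stimulus-secretion genes had 12 of 15 below 0 (median -0.10). The largest were the G protein gene Gnas (-0.46), the sodium channel gene Scn3a (-0.29) and the calcium channel gene Cacna1a (-0.28) in the authors' deposited table. Transcription factors had 18 of 25 below 0 (median -0.09), and Foxa2, counted above 0, was listed at 0 in group 2. Those past 0.5 were Fev, which acts in serotonin cells, at -0.64, and Runx1t1 at -0.59 in the authors' deposited table. Over all genes of the sheet, 35.3% were above 0 and the median was -0.05, close to the medians of the receptor, stimulus-secretion and transcription factor lists.

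**Figure D5:**
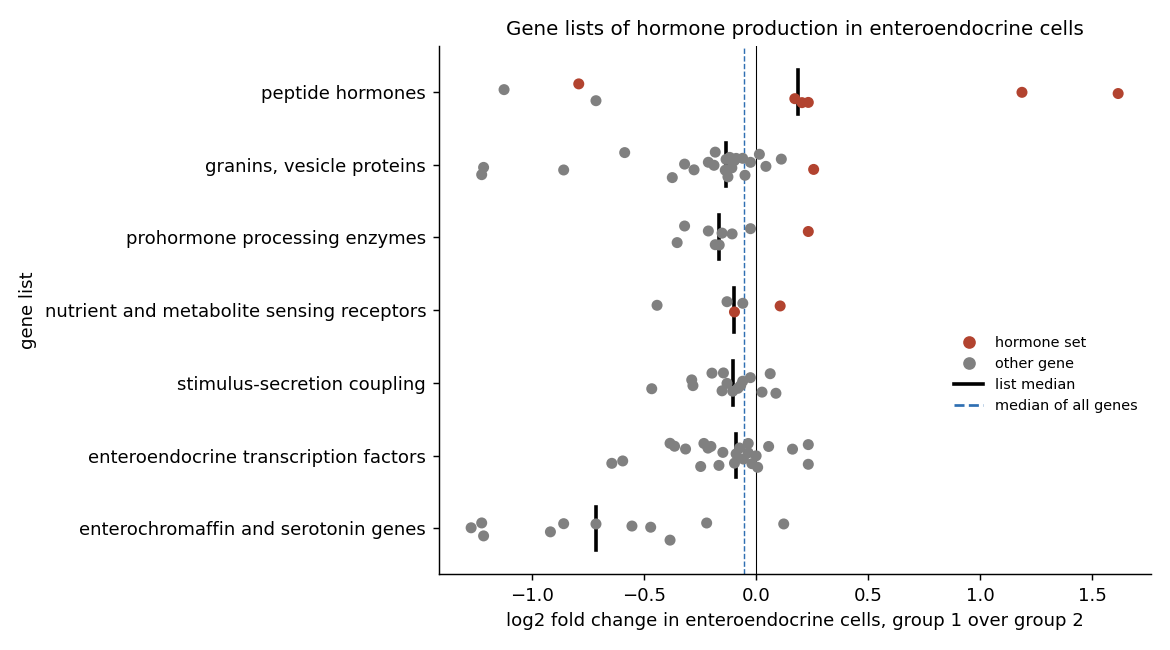
Log2 fold change in enteroendocrine cells (group 1 over group 2, horizontal axis) of the listed genes of 7 gene lists (vertical axis); red points belong to the 10 genes, black bars are list medians, the dashed line is the median of all genes, and genes listed at 0 in either group are not drawn. Pyy and Sct lie apart on the right, while serotonin genes have a median of -0.71.

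Genes of other epithelial cells were also found in the enteroendocrine sheet. Of 18 enterocyte markers, 13 were listed, and their detection shares summed to 653.1 points in group 1 and 747.5 in group 2. Sis (-0.51), Anpep (-0.47) and Rbp2 (-0.46) were the largest in the authors' deposited table, and Fabp6 was found in 100% of the cells of both groups. Goblet markers had 9 of 15 listed (361.9 points in group 1 and 390.0 in group 2), with Agr2 at -0.97, Tff3 at 0.57 and Spink4 at -0.16 in the authors' deposited table. Paneth markers had 4 of 11 listed (38.2 points in group 1 and 75.0 in group 2), led by Defa24 at -0.31, Mmp7 at -0.11 and Itln1 at -0.06 in the authors' deposited table. Stem and cycling markers had 4 of 10 (47.1 points in group 1 and 37.5 in group 2), 3 above 0 and 1 below, with Olfm4 at 0.33, Slc12a2 at 0.20, Lgr5 at 0.13 and Pcna at -0.09 in the authors' deposited table. Tuft markers had 2 of 12 listed, Pou2f3 at -0.09 and Cd24a at 0.07, in the authors' deposited table. None of 11 immune markers was listed, and of 11 mesenchymal and neural markers Vim (0.19) and Pecam1 (-0.12) were, in the authors' deposited table. Vim was itself a marker of cluster 6, with 53.6% inside and 0.2% outside, in the authors' deposited table. The part of these transcripts in the values of Pyy, Sct and the other 8 genes was not tested.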

How the data were processed

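Single epithelial cells from 1 pooled sample per genotype were analysed from the authors' deposited tables. Tools named in the submitters' processing notes are Cell Ranger, Seurat and DESeq2 1.30.1, with the build mm10; no source used here ties a tool to a column or says how cells, doublets and cell types were handled. Per the file headers, the deposited columns are an average log2 fold change, the fraction of cells with the gene in either group (printed here as percent), and p-values. Over which units the deposited p-values were computed is not stated, and none was used, apart from noting which were blank. Gene positions came from RefSeq (GRCm38.p6), in which all 10 symbols were found. No sequence is printed.

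Shares were subtracted, fold changes ranked over each whole sheet, and genes counted past an absolute log2 fold change of 0.5, in Python 3.11.15 with pandas 2.3.3; the counting was tested on simulated data. The genes and lists were chosen with earlier results of these data known. Named were the 10 genes, listed genes of the hormone, granin, processing, receptor, transcription factor and serotonin lists past 0.5, the 3 largest of each other list, the 5 closest to Pyy and Sct, and the 5 leading genes of clusters that hold a member. Pcsk1, Cpe, Pam, Ffar2, Fabp6, Stx1a, Foxa2 and Pcna were added after their values were seen. The alternatives were other zero points, measures, limits, a detection filter and list means.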

Additional observations from a re-analysis of the deposited data

How the results depend on the processing

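With 1 sample per genotype, no replicate could be left out, and no paired analysis was possible because each genotype was 1 pooled sample. When the median of all genes was subtracted, 1 of 19 fold changes of the 10 genes changed sign (Sct in goblet cells, to 0.04) and Gcg in tuft cells came to 0. With the median of genes at shares of 50% or more in group 1 and in group 2 alike subtracted, 13 kept their sign, and the 6 that did not were Pcsk2 in the 4 other cell types, Sct in goblet cells and Gcg in tuft cells. Measured by detection, Ghrl turned to 5.1 points and 0.40 log odds in favour of group 1, and Cck turned to -2.4 points. The count of members at -0.5 or less was 0 at a limit of 1 or with a filter of 25% detection in 1 group, both of which leave out Ghrl. The count at 0.5 or more was 2 or 3 under each of these limits. Of the 8 members detected more often in group 1, 5 differed by over 10 points, among them Pcsk2, which was listed through group 1 alone. At a limit of 0.25, 118 genes of the enteroendocrine sheet were higher and 342 lower, and at a limit of 1, 2 and 4. Pyy and Sct were the 2 genes left on the higher side. The number of cells limits every share: no source used states it, and the smallest enteroendocrine shares point to few cells.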
